A study of Mus musculus with 10 samples.

Results

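The genes described are 10 components of the vascular basement membrane, *Col4a1*, *Col4a2*, *Lama4*, *Lama5*, *Lamb1*, *Lamc1*, *Nid1*, *Nid2*, *Hspg2* and *Sparc*, taken by name from 22828 genes with counts in at least 3 cells. Their transcripts were counted as UMIs (unique molecular identifiers, 1 for each captured RNA molecule) in single cells sorted from mouse femur and tibia. All mice were C57BL/6 and carried the Cdh5-mTnG reporter, in which the promoter of the VE-cadherin gene labels endothelial nuclei, and cells positive for GFP and tdTomato were kept after lineage depletion. The 5 groups were juvenile (3 weeks, male and female), adult (12 weeks, female), aged (75 weeks, female), adult mice given parathyroid hormone (PTH 1-34) daily and adult mice given the bisphosphonate alendronate every other day, with 2 libraries in each. Mice were pooled within a group and each experiment was done once, so p-values below measure the spread between libraries, which may be technical. The juvenile pool held males and the adult and aged pools did not, and age and sex cannot be told apart in that comparison.

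The basement membrane is the sheet on which endothelial cells rest. Collagen IV, a trimer of *Col4a1* and *Col4a2* chains in most vessels, forms its covalent network, and laminins, trimers of an alpha, a beta and a gamma chain, form the network that faces the cell. *Lama4* and *Lama5* encode the alpha chains used by endothelium, *Lamb1* and *Lamc1* a beta and a gamma chain that pair with both. The nidogens (*Nid1*, *Nid2*) and the heparan sulfate proteoglycan perlecan (*Hspg2*) connect the networks, and *Sparc* encodes a small glycoprotein that binds collagens and is also abundant in bone-forming cells. Sinusoids of the bone marrow are known for a thin and discontinuous basement membrane, whereas arteries and most capillaries have a continuous one.

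Libraries held between 10653583 and 28419323 UMIs, and 46283 of 47466 cells had 500 to 6000 genes and less than 25% mitochondrial UMIs, with medians of 3075 to 5149 UMIs per cell. Pairs of libraries without an aged one shared 0.456% to 1.47% of the barcodes of the smaller one, and pairs with an aged one 0.114% to 0.157%. After removal of 2102 cells of other lineages, 38634 cells fell into 4 endothelial types named by markers, 17995 sinusoidal-like, 10944 metaphyseal-like, 6843 arterial-like and 2852 type R-like. Of the sinusoidal-like cells, 2681 formed a shallow cluster (median of 1439 UMIs) led by *Gm10800* and *Gm10801* and named by its sinusoidal score (2.14). At a cluster resolution of 0.3, a cluster of 3311 cells led by the same 2 genes was left unnamed. The defining markers were in place. *Stab2* averaged 1902 CPM (counts scaled to 1e+06 UMIs of a type in a library) in sinusoidal-like sums and at most 360 CPM elsewhere. *Gja4* averaged 1284 CPM in arterial-like and at most 106 CPM elsewhere. *Ramp3* averaged 402 CPM in metaphyseal-like and at most 136 CPM elsewhere, and *Timp4* averaged 1241 CPM in type R-like and at most 16.3 CPM elsewhere. *Aplnr*, also a metaphyseal marker, did not separate those types. It averaged 1036 CPM (658 to 1711) in metaphyseal-like and 638 CPM (162 to 1138) in type R-like sums. Type R-like cells were few in the juvenile libraries (46 and 31) and in PTH replicate 1 (36). The aged libraries stood apart, since genes whose names begin with a capital U had UMIs only there (1.52% and 1.53% of UMIs, removed) and their median mitochondrial share was 2.31% and 2.42%, against 1.15% to 1.43% in the other 8 libraries. They also held UMIs of 22735 and 22736 genes, against 19039 to 20912. The version of the 10x Chromium 3′ kit and the gene annotation used for each library are not given in the sources used here, so age cannot be told apart from library preparation or annotation in the aged contrast. The 10 members were kept out of the genes used for clustering, but the types were drawn from the same cells, so tests between types describe how regularly a difference recurs over libraries. Transcripts were measured, and the matrix itself was not. A further cluster of 1930 cells, led by *Tagln*, *Ccl21a* and *Vwf*, scored highest for lymphatic markers (2.38) with type R markers close behind (1.95), and was kept out of the 4 types. At cluster resolutions of 0.3 and 0.8 clusters of 1945 and 1454 cells led by *Tagln* and *Vwf* fell to the type R-like class, which then held 4864 and 4426 cells, and 47 cells remained lymphatic-like. Summed erythroid markers ran from 0 to 2812 CPM over the sums, highest in an aged type R-like sum, and their part in the results was not tested.

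*Col4a1* and *Col4a2* lie head to head on chromosome 8 (GRCm38, chr8:11198423-11312826 on the minus strand and chr8:11312805-11449287 on the plus strand), with annotated starts 21 bases apart. Their first exons overlap on opposite strands, as do exons of *Col4a2* with Gm15419, *Nid1* with Gm48682 and *Nid2* with *Rtraf*, and reads there cannot be assigned with certainty because the strand setting of the counting is not given in the sources used here. The stretch around both starts is shown because no gene followed *Col4a1* more closely over the sums than *Col4a2* (below). Capitals mark the bases from the *Col4a2* start to the *Col4a1* start on the plus strand, chr8:11312801-11312830, which hold 1 GC box:
Col4a1 and Col4a2: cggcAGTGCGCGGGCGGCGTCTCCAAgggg
The sequences before the first annotated base of *Lamb1* (chr12:31265043-31265233, plus strand) and *Nid1* (chr13:13437352-13437550, plus strand) are shown for the member furthest below and the member furthest above the other types in sinusoidal-like cells, with GC boxes in capitals:
Lamb1: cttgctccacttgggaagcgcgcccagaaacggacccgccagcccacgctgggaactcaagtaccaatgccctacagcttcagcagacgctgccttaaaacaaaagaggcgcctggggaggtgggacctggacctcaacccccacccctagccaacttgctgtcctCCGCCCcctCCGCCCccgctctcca
Nid1: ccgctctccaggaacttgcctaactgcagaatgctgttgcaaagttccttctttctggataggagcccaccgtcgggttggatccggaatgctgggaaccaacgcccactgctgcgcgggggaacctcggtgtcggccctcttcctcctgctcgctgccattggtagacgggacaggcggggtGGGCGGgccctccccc
RefSeq promoter windows (GRCm38.p6, 250 bases before to 50 after the start) were matched for 7 of the 10 members. GGGCGG, the GC box, was found on either strand in 6 of these 7 windows and in 35.7% of all 32851 windows, CCAAT in 4 of 7 and in 37.4%, and TATAAA in 0 of 7 and in 13.6%. The *Col4a1* and *Col4a2* windows share 78 bases, and the 1 GC box of the *Col4a1* window lies there and is counted for both. The *Sparc* window rests on a start at chr11:55420080, inside the annotated gene. The other members are *Lama4* (chr10:38965515-39110188), *Lama5* (chr2:180176373-180225859), *Lamc1* (chr1:153218922-153332786), *Nid2* (chr14:19751265-19811787), *Hspg2* (chr4:137468769-137570630) and *Sparc* (chr11:55394500-55423183).

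The first comparison asks how the components differ between vessel types. Sinusoidal-like cells had the lowest levels of *Col4a1*, *Col4a2*, *Lama4*, *Lama5*, *Lamb1* and *Nid2* in 10 of 10 libraries, and the highest level of *Nid1* in 10 of 10. Metaphyseal-like cells had the highest *Col4a1*, *Col4a2*, *Lamc1*, *Nid2*, *Hspg2* and *Sparc* in 8 of 10, arterial-like cells the highest *Lama5* in 10 of 10, and type R-like cells the highest *Lama4* in 8 of 10. In every case of 8 of 10 the departures were the juvenile libraries. There *Col4a1* was at 1757 and 1741 CPM in metaphyseal-like, 2241 and 2066 CPM in arterial-like and 2287 and 2504 CPM in type R-like cells. Juvenile *Sparc* was at 8758 and 8809 CPM in metaphyseal-like and 9677 and 9624 CPM in arterial-like cells. In edgeR's quasi-likelihood test of each type against the mean of the other 3 (adjusted p under 0.05 and an absolute log2 fold change over 1), 5 members were lower and 1 was higher in sinusoidal-like cells, against 8.08% and 8.26% of the 11546 genes tested. In metaphyseal-like cells 3 members were higher and 0 lower (all genes 4.07% and 3.17%), in arterial-like cells 0 were higher and 1 lower (5.86% and 4.92%), and in type R-like cells 2 were higher and 1 lower (6.03% and 8.87%). The mean of the others there includes sinusoidal-like cells. The higher calls (*Col4a1*, *Lamb1* and *Nid2* in metaphyseal-like, *Lama4* and *Lamb1* in type R-like cells) thus rest in part on low sinusoidal-like levels. The median log2 fold change of the members was -1.16 in sinusoidal-like and 0.86 in metaphyseal-like cells, where the median of all genes was 0.01 in both.

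**Figure D1:**
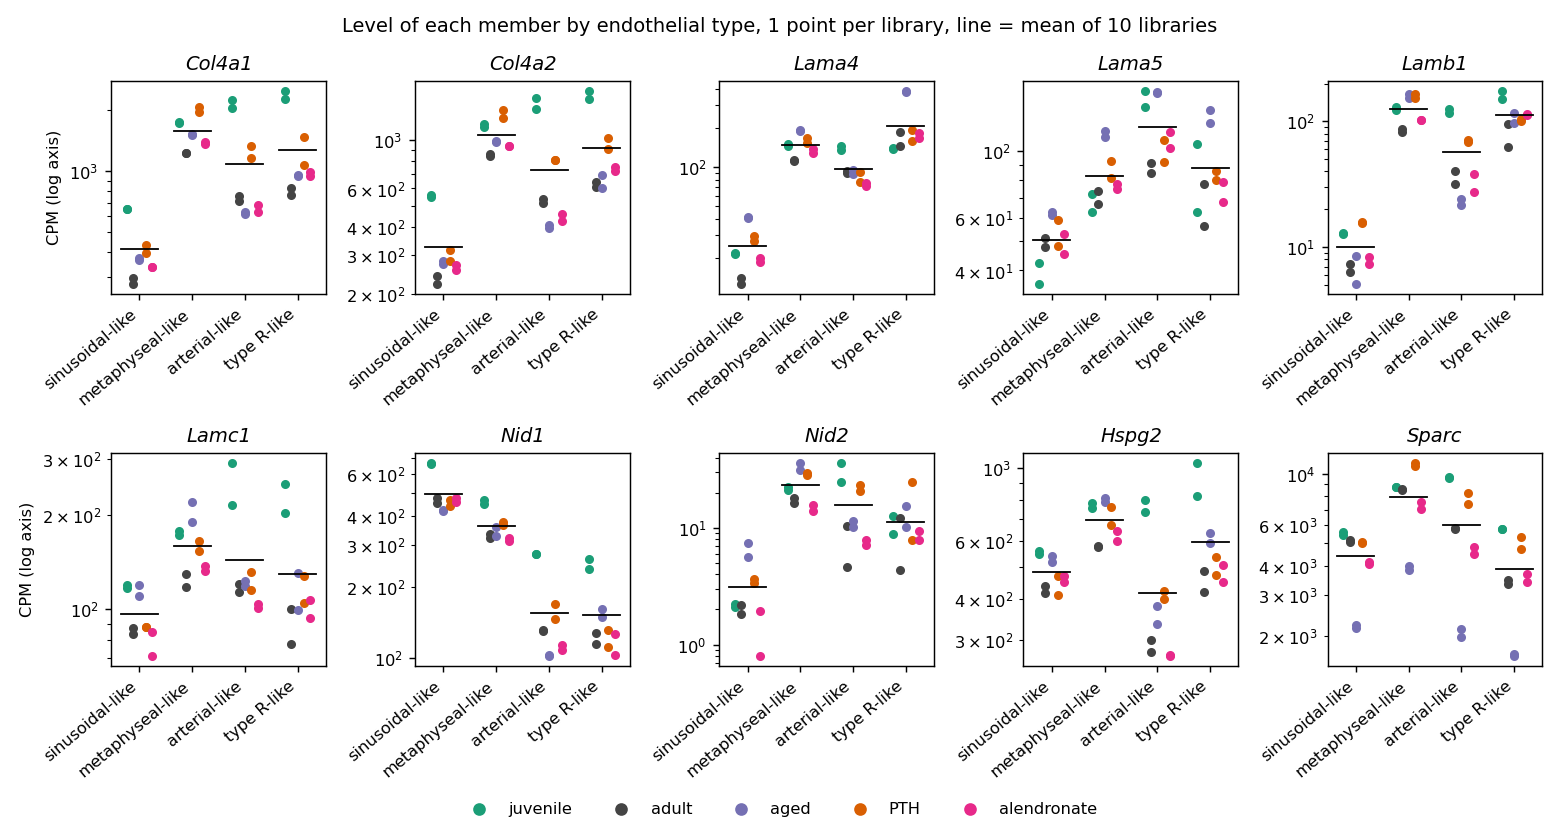
Level of each member (CPM, log axis) in the 4 endothelial types, with 1 point for each of the 10 libraries coloured by group and a line at the mean. Within each library the sinusoidal-like point lies lowest for *Col4a1*, *Lama4*, *Lamb1* and *Nid2* and highest for *Nid1*. Between libraries the points of *Col4a1*, *Nid1* and *Nid2* overlap in part with those of other types.

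*Col4a1* in sinusoidal-like cells ran from 277 through a median of 370 to 656 CPM over the 10 libraries. In metaphyseal-like cells it ran from 1233 through 1520 to 2080 CPM, in arterial-like cells from 619 through 739 to 2241 CPM and in type R-like cells from 761 through 974 to 2504 CPM. The sinusoidal-like range overlapped only the arterial-like one, whose top was set by a juvenile library. Against the mean of the other types *Col4a1* was 3.08-fold lower in sinusoidal-like cells (log2 fold change -1.62 ± 0.10 SE, adjusted p = 1.99e-17 by edgeR) and 2.07-fold higher in metaphyseal-like cells (1.05 ± 0.09, adjusted p = 4.88e-13). The higher call rests in part on the low sinusoidal-like level. *Col4a1* averaged 1583 CPM in metaphyseal-like, 1278 in type R-like, 1085 in arterial-like and 413 in sinusoidal-like cells. *Col4a2*, its partner chain, averaged 324 ± 123 CPM (SD, n = 10) in sinusoidal-like, 1047 ± 177 in metaphyseal-like, 728 ± 415 in arterial-like and 914 ± 384 in type R-like cells, and its log2 fold change was -1.44 ± 0.10 in sinusoidal-like cells. In metaphyseal-like cells that of *Col4a2* was 0.92 ± 0.08, just under the limit of 1. Arterial-like and type R-like cells did not differ in *Col4a1* by the test (type R-like against arterial-like 0.27 ± 0.11, adjusted p = 0.0652).

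The laminin chains varied unequally between the types. *Lamb1*, which the study also used to mark its metaphyseal cluster on these samples, ran from 5.05 through 8.38 to 15.8 CPM in sinusoidal-like cells and from 81.8 through 127 to 164 CPM in metaphyseal-like cells, with no overlap. It was 13.1-fold higher in metaphyseal-like than in sinusoidal-like cells (log2 3.71 ± 0.18, adjusted p = 3.87e-20). It was 11.9-fold higher in type R-like than in sinusoidal-like cells (3.57 ± 0.23, adjusted p = 6.89e-17). The sinusoidal-like share of cells with a *Lamb1* UMI lay within the haematopoietic background (below), so both fitted folds are taken against a level not shown to be above that background. Metaphyseal-like and type R-like cells were not separated (type R-like against metaphyseal-like -0.13 ± 0.19, adjusted p = 0.582). The arterial-like level lay between, at 56.6 ± 38.1 CPM. The *Lamb1* call in type R-like cells against the mean of the others (1.56 ± 0.18) was lost at the higher cluster resolution and when cells were typed by marker UMIs alone, where its lowest value was 0.76.

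*Lama4*, the alpha 4 chain, ran from 12.4 through 21.6 to 41.0 CPM in sinusoidal-like cells and from 138 through 176 to 388 CPM in type R-like cells. Type R-like cells stood 9.50-fold above sinusoidal-like cells (log2 3.25 ± 0.15, adjusted p = 1.68e-21), 2.34-fold above arterial-like cells (1.23 ± 0.14, adjusted p = 2.27e-09) and 1.48-fold above metaphyseal-like cells, the last below the fold limit (0.57 ± 0.13). *Lama5*, the alpha 5 chain, varied less. It averaged 50.7 ± 8.57 CPM in sinusoidal-like, 83.0 ± 18.4 in metaphyseal-like, 121 ± 29.7 in arterial-like and 87.6 ± 26.6 in type R-like cells, and the called pair was arterial-like against sinusoidal-like (1.21 ± 0.09, 2.32-fold, adjusted p = 2.28e-15). *Lamc1*, the common gamma chain, was called in no contrast of a type against the others, with log2 fold changes from -0.51 ± 0.08 in sinusoidal-like to 0.46 ± 0.08 in metaphyseal-like cells.

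Both alpha chains were set against each other as the share of *Lama5* among *Lama4* and *Lama5* UMIs of the same sum, which does not depend on total counts and is a share of captured transcripts, not of protein. The share was 68.2% ± 7.19 (SD, n = 10) in sinusoidal-like, 55.6% ± 5.68 in arterial-like, 35.7% ± 2.80 in metaphyseal-like and 30.6% ± 5.80 in type R-like cells. Of 6 pairs of types, 5 differed in an exact two-sided permutation test over libraries, adjusted over 12 tests. The test counts the 10 libraries as separate units, although they come from 5 groups of pooled mice. Its p-values, here and for the *Col4a1* share below, therefore do not measure the spread between mice. The arterial-like share was below the sinusoidal-like one in 8 of 10 libraries (difference -12.6 ± 11.3 SD, adjusted p = 0.0134, exact permutation test). In the aged libraries it was above, at 62.3% and 64.2% against 60.1% and 60.5%. The metaphyseal-like share was below the sinusoidal-like share by 32.5 points in 10 of 10 libraries (difference -32.5 ± 6.37 SD, adjusted p = 0.00391 by the exact test, where the raw p of 0.00195 is the smallest that 10 libraries can give). Type R-like and metaphyseal-like shares differed by -5.12 ± 8.21 points, lower in 8 of 10 libraries, and were not separated (adjusted p = 0.0961, exact permutation test). Without juvenile replicate 1 that difference was -7.10 points and passed the threshold. Some type R-like shares rest on few UMIs, and the test weighs all libraries equally. *Lama4* and *Lama5* had 16 and 12 UMIs in juvenile replicate 1, 11 and 5 in juvenile replicate 2 and 26 and 14 in PTH replicate 1.

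The share of *Col4a1* among *Col4a1* and *Col4a2* UMIs was close to even across types, at 56.3% ± 1.49 in sinusoidal-like, 57.8% ± 2.39 in type R-like, 59.8% ± 1.34 in arterial-like and 60.1% ± 0.70 in metaphyseal-like cells. It was higher in metaphyseal-like than in sinusoidal-like cells by 3.83 ± 1.28 points and in arterial-like than in sinusoidal-like cells by 3.53 ± 1.51 points, each in 10 of 10 libraries (adjusted p = 0.00391, exact permutation test). The type R-like share was below the metaphyseal-like one by 2.29 points (difference -2.29 ± 2.30, lower in 8 of 10, adjusted p = 0.0176, exact permutation test). That difference missed the threshold when cells were typed by marker UMIs and with the stricter cell filter.

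**Figure D2:**
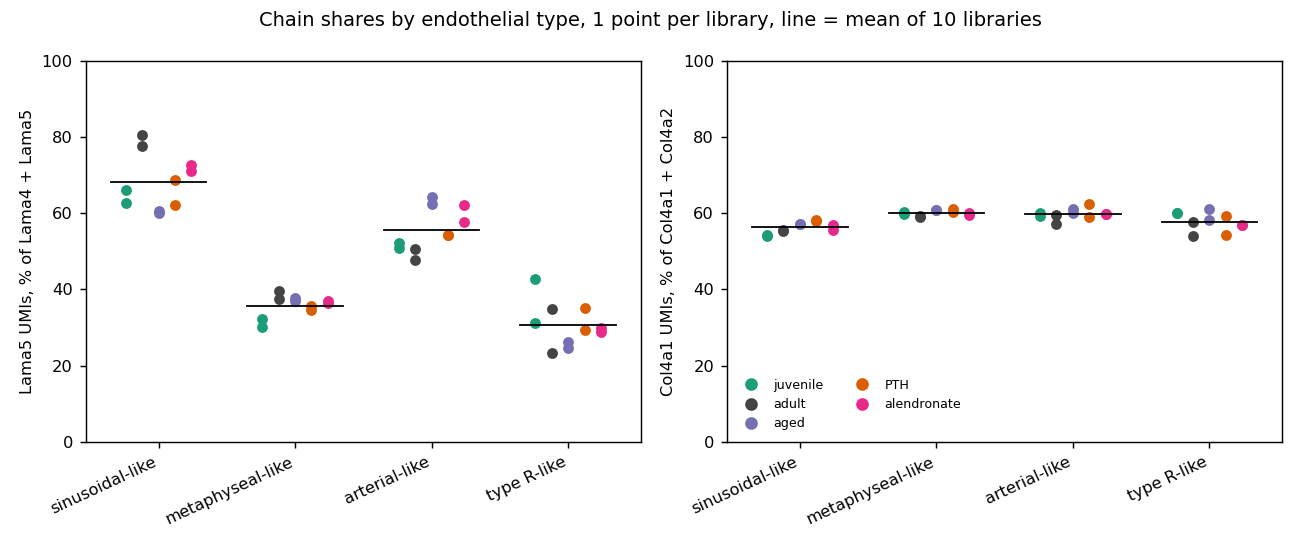
Share (%) of *Lama5* among *Lama4* and *Lama5* UMIs (left) and of *Col4a1* among *Col4a1* and *Col4a2* UMIs (right) by type, with 1 point for each library coloured by group and a line at the mean of 10 libraries. The *Lama5* share falls from 68.2% in sinusoidal-like to 30.6% in type R-like cells, and the *Col4a1* share stays between 56.3% and 60.1%.

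The nidogens ran in opposite directions in sinusoidal-like cells, while both were higher in metaphyseal-like than in type R-like cells in 10 of 10 libraries. *Nid1* ran from 418 through 461 to 670 CPM in sinusoidal-like cells and from 102 through 129 to 263 CPM in type R-like cells, with no overlap. Set against the average of the other 3 types it was 2.48-fold higher in sinusoidal-like cells (log2 1.31 ± 0.06, adjusted p = 1.82e-20), and its levels in arterial-like and type R-like cells did not differ by the test (0.02 ± 0.10, adjusted p = 0.941). The lower *Nid1* calls in arterial-like (-1.03 ± 0.08) and type R-like cells (-1.01 ± 0.09) lay at the fold limit. The first was lost without aged replicate 1, aged replicate 2 or alendronate replicate 2, and the second without adult replicate 1, PTH replicate 1, PTH replicate 2 or alendronate replicate 1. The first was also lost at a resolution of 0.8, without integration and with the stricter cell filter, and the second when cells were typed by marker UMIs and when cells with UMIs of haematopoietic, mural or osteolineage markers were left out. *Nid2* was scarce everywhere, from 0.792 through 2.22 to 7.45 CPM in sinusoidal-like and from 13.9 through 21.7 to 36.1 CPM in metaphyseal-like cells, and was 8.06-fold higher in the latter by the fit (3.01 ± 0.18, adjusted p = 3.05e-17). As for *Lamb1*, the sinusoidal-like share of cells with a UMI lay within the haematopoietic background without thinning (below).

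*Hspg2* and *Sparc* passed the fold limit in no type against the mean of the others. *Hspg2* averaged 482 ± 55.3 CPM in sinusoidal-like, 697 ± 93.4 in metaphyseal-like, 418 ± 192 in arterial-like and 596 ± 194 in type R-like cells. *Sparc* averaged 4404 ± 1263 CPM in sinusoidal-like, 7903 ± 2454 in metaphyseal-like, 6000.2 ± 2761 in arterial-like and 3885 ± 1518 in type R-like cells, and was 2.11-fold lower in type R-like than in metaphyseal-like cells (-1.07 ± 0.09, adjusted p = 4.79e-13).

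The share of cells with at least 1 UMI was compared after thinning each cell to 1000 UMIs, beside 1272 haematopoietic cells of the same libraries, taken as the background. These had a median of 5472.5 UMIs before thinning (1997.5 to 4003.5 in the types). Whether their UMIs of the members were their own was not tested. Their largest cluster, of 850 cells, scored 4.385 for haematopoietic and 3.779 for megakaryocyte markers. *Col4a1* was found in 72.7% ± 6.56 of metaphyseal-like, 61.1% ± 14.0 of type R-like, 49.3% ± 14.8 of arterial-like and 28.8% ± 7.95 of sinusoidal-like cells (SD over 10 libraries), against 7.08% ± 5.52 of haematopoietic cells. Without thinning it was found in 95.9%, 81.9%, 77.3% and 64.3% of the same types in that order and in 27.7% of haematopoietic cells. *Lamb1* was found in 1.04% ± 0.53 of sinusoidal-like and 0.44% ± 0.67 of haematopoietic cells, so its sinusoidal-like share lay within the spread of the background, whereas the metaphyseal-like share was 11.7% ± 3.48. Without thinning these shares were 3.46% ± 1.35 in sinusoidal-like, 3.66% ± 2.74 in haematopoietic and 35.4% ± 10.5 in metaphyseal-like cells. *Lama4* reached 20.4% ± 7.54 of type R-like and 2.27% ± 1.07 of sinusoidal-like cells, against 0.23% ± 0.38 (36.4%, 8.63% and 3.28% without thinning). *Sparc* was found in 89.7% to 98.1% of cells of each type and in 22.3% ± 13.7 of haematopoietic cells (95.4% to 99.9% and 54.5% without thinning). *Nid2* had a UMI in 2.63% ± 1.15 of metaphyseal-like cells, in 0.41% ± 0.44 of sinusoidal-like cells and in 0 of 1272 haematopoietic cells. At this thinned depth the last allows a share of up to 0.236% (counting error only). Without thinning it was found in 10.4% ± 5.47 of metaphyseal-like, 1.44% ± 1.45 of sinusoidal-like and 1.28% ± 1.35 of haematopoietic cells, so the unthinned sinusoidal-like share lay within the spread of the background.

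The comparisons between groups were made within each type, against the adult libraries, which serve as controls for all 4 contrasts, so these contrasts are not independent of each other. Over 10 members and 4 types, 32 of 40 values were higher and 1 was lower in juvenile than in adult libraries (edgeR, adjusted p under 0.05), where 11.7% of all values tested were higher and 11.7% lower. In aged libraries 23 were higher and 9 lower, but 30.2% and 29.8% of all values passed there. In PTH libraries 23 were higher and 0 lower (all genes 5.0% and 4.81%), and in alendronate libraries 6 were higher and 5 lower (6.36% and 4.88%). The median log2 fold change of the 40 values was 0.68 in juvenile, 0.30 in aged, 0.40 in PTH and 0.05 in alendronate libraries, and that of all values tested was -0.01 in juvenile libraries and nearer to 0 in the other contrasts. One alternative left out cells with UMIs of haematopoietic, mural or osteolineage markers, which were 24161 of the 38634 cells and left 3342 of 17995 sinusoidal-like cells. Of the cells left out, 20665 carried a UMI of *Kcnj8*, a mural marker that averaged 611 CPM in sinusoidal-like and 362 CPM in metaphyseal-like sums, where the other 4 mural markers averaged at most 1.90 CPM. That setting is called below the one without marker-carrying cells, and it removed mostly *Kcnj8*-carrying cells of the endothelial types. In a pooled sum of cells, a change in the mix of cells within a type and a change per cell cannot be told apart.

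**Figure D3:**
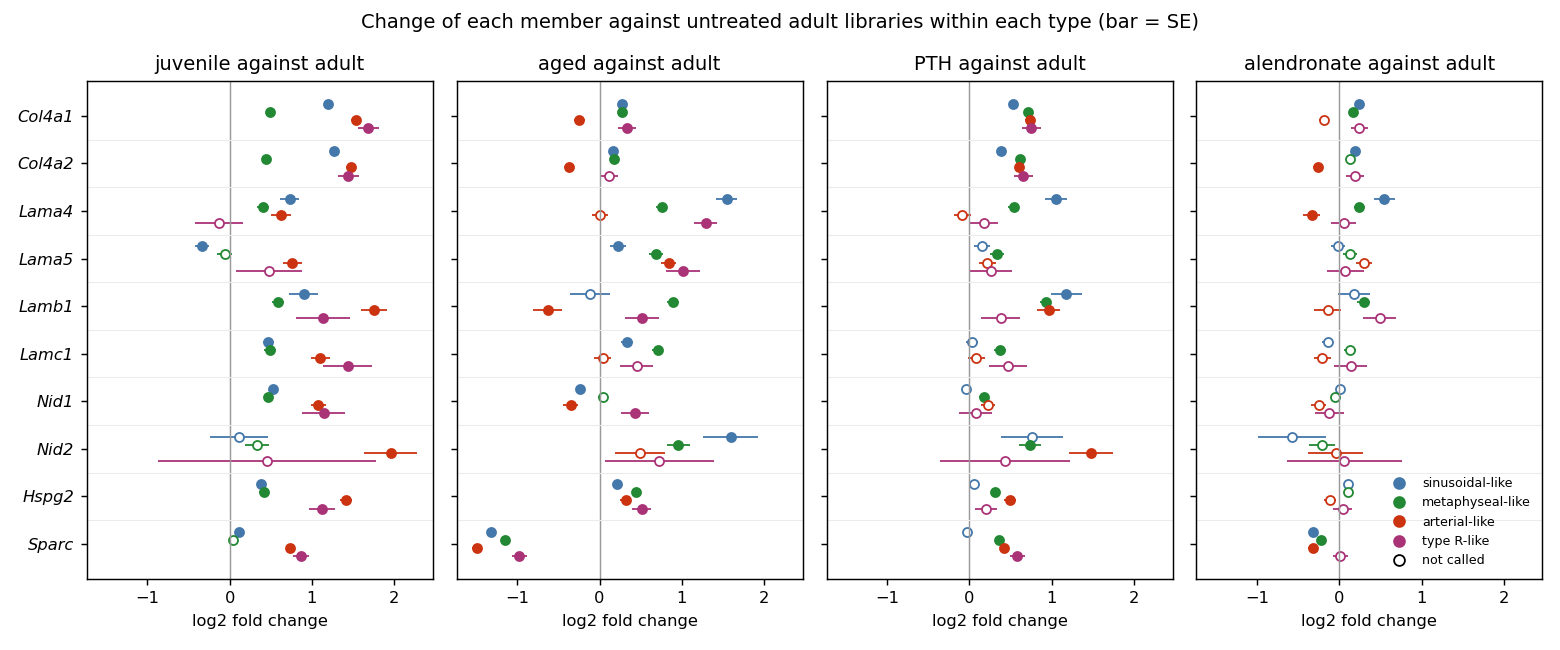
Log2 fold change of each member against the adult libraries in the 4 types, with bars of 1 SE and 2 libraries in each group. Filled points passed an adjusted p of 0.05 in edgeR and open points did not. Juvenile and PTH points lie mostly right of 0, and *Sparc* lies left of 0 in all 4 types in aged libraries.

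The juvenile contrast asks what differs between growing and adult bone. *Col4a1*, *Col4a2*, *Hspg2*, *Lamb1*, *Lamc1* and *Nid1* were higher in all 4 types. *Col4a1* in arterial-like cells was at 2297 and 2109 CPM in juvenile and at 779 and 736 CPM in adult libraries, 2.91-fold higher (log2 1.54 ± 0.06, adjusted p = 2.52e-19). In type R-like cells it was at 2444 and 2763 CPM against 770 and 839 CPM (1.69 ± 0.12, adjusted p = 7.47e-16). In sinusoidal-like cells it was at 632 and 633 CPM against 286 and 266 CPM (2.29-fold, adjusted p = 3.90e-26). In metaphyseal-like cells it was at 1778 and 1761 CPM against 1259 and 1251 CPM (0.50 ± 0.05, adjusted p = 2.50e-11). Juvenile and adult libraries did not overlap in any type. *Col4a2* followed, with log2 fold changes from 0.44 in metaphyseal-like to 1.47 in arterial-like cells.

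The *Lamb1* rise ran from 0.59 in metaphyseal-like to 1.76 ± 0.16 in arterial-like cells, where juvenile libraries held 119 and 129 CPM and adult libraries 32.5 and 41.3 CPM. *Lamc1* was 2.15-fold higher in arterial-like and 1.39-fold higher in sinusoidal-like cells. *Lama4* was higher in 3 types, by 0.40 in metaphyseal-like to 0.73 in sinusoidal-like cells, and not called in type R-like cells (-0.13 ± 0.29, adjusted p = 0.900). *Lama5* alone split, higher in arterial-like cells (0.76 ± 0.12, adjusted p = 1.45e-05) and lower in sinusoidal-like cells (-0.34 ± 0.09, adjusted p = 0.00211), the latter call being lost without juvenile replicate 1. The sinusoidal-like *Lama4* and *Lamb1* calls were lost when cells were typed by marker UMIs, where *Lama4* was at 0.30, and without marker-carrying cells, where *Lama4* was at 0.60 and *Lamb1* at 1.09. Leaving those cells out also ended the sinusoidal-like *Lama5* and *Sparc* calls. Typing by marker UMIs defined the types anew over all endothelial cells, with 962 type R-like cells in place of 2852. It ended the type R-like *Hspg2*, *Lamb1*, *Lamc1* and *Nid1* calls at log2 values of 0.76, 0.93, 1.24 and 0.69. The juvenile type R-like sums rest on 46 and 31 cells, and the *Lamb1*, *Lamc1* and *Nid1* calls there were lost when juvenile replicate 2 was left out, the *Lamb1* and *Nid1* calls also without juvenile replicate 1, and the *Lamb1* call also without adult replicate 1, aged replicate 1 or aged replicate 2.

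In the linking components, *Nid1* rose in all 4 types, in sinusoidal-like cells from 455 and 436 CPM in adult to 641 and 647 CPM in juvenile libraries (0.53 ± 0.04). *Hspg2* rose most in arterial-like cells, from 307 and 282 to 819 and 749 CPM (1.41 ± 0.07). *Sparc* rose in arterial-like (0.73 ± 0.05) and type R-like cells (0.87 ± 0.10), by 0.11 ± 0.03 in sinusoidal-like cells (a call lost without juvenile replicate 1), and was not called in metaphyseal-like cells (0.04 ± 0.05, adjusted p = 0.620). The summed level of 7 haematopoietic markers was 0 to 9.22 CPM over the types in juvenile and 31.6 to 47.1 CPM in adult libraries, and that of 4 megakaryocyte markers was 195 to 220.2 CPM in juvenile and 77.1 to 89.2 CPM in adult sinusoidal-like cells and 113 to 125 against 57.2 to 63.0 CPM in metaphyseal-like cells. The osteolineage sum was 33.8 to 36.2 CPM in juvenile and 21.5 to 23.3 CPM in adult sinusoidal-like cells, and 18.4 to 20.8 against 9.49 to 9.96 CPM in metaphyseal-like cells. The erythroid sum was 279 to 322 CPM in juvenile and 174 to 193 CPM in adult sinusoidal-like cells, 456 to 876 against 197 to 390 CPM in type R-like cells and 222 to 1347 against 182 to 227 CPM in metaphyseal-like cells. The mural sum in type R-like cells was 27.7 to 41.5 against 72.0 to 74.9 CPM. The part of these lists in the changes was not tested.

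**Figure D4:**
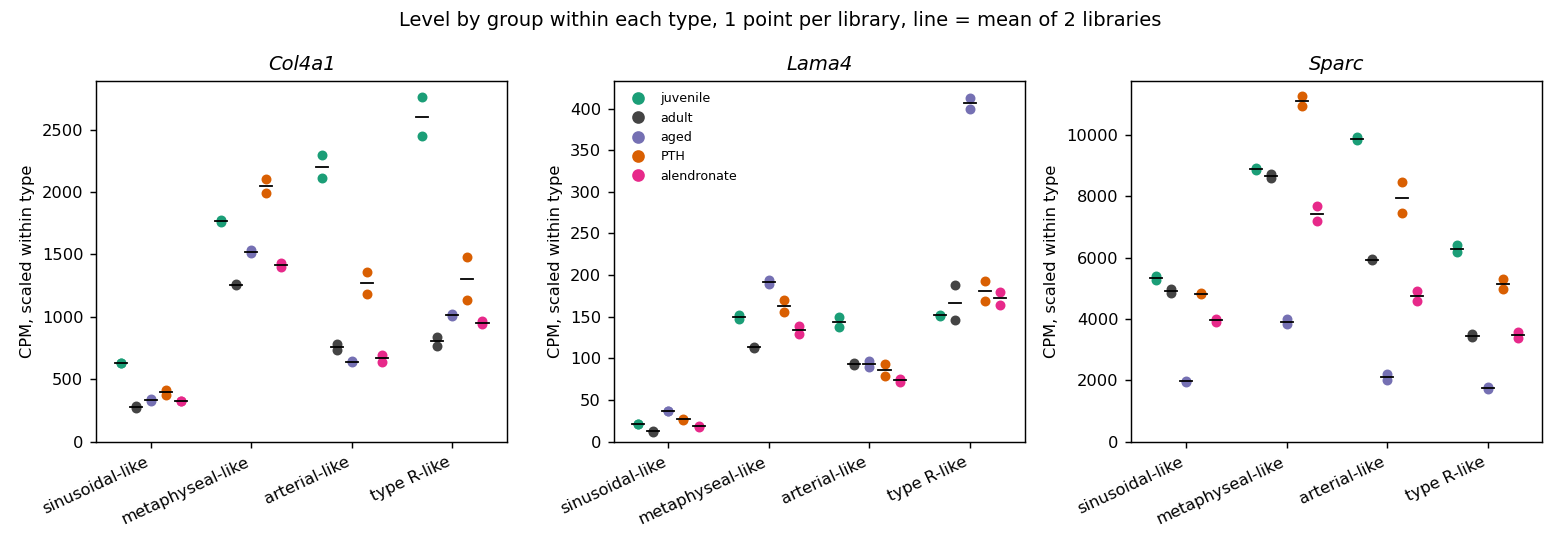
Levels (CPM, scaled within a type) of *Col4a1*, *Lama4* and *Sparc* by type and group, with 1 point for each library and a line at the mean of 2 libraries. *Col4a1* is highest in juvenile libraries in 3 of the 4 types, *Lama4* in type R-like cells is highest in aged libraries, at 400 and 413 CPM, and *Sparc* is lowest in aged libraries in every type.

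In aged libraries *Sparc* was lower in all 4 types. It stood at 1948 and 1993 CPM in aged and 4862 and 4978 CPM in adult sinusoidal-like cells (-1.32 ± 0.03, 2.50-fold lower, adjusted p = 2.22e-33). In metaphyseal-like cells it stood at 3833 and 3989.9 CPM against 8603 and 8736 CPM (-1.15 ± 0.05). Arterial-like cells held 2195 and 2021 CPM against 5954 and 5909 CPM (-1.49 ± 0.05, adjusted p = 4.93e-22), and type R-like cells 1728 and 1779.5 CPM against 3397 and 3508 CPM (-0.98 ± 0.09, adjusted p = 5.39e-13). No aged library reached the level of an adult library in any type, a difference in which age and library preparation or annotation cannot be told apart. The median absolute log2 fold change over all genes in this contrast was 0.55 to 0.65 by type, against 0.24 to 0.51 in the juvenile and 0.15 to 0.29 in the PTH and alendronate contrasts. *Col1a1*, the main collagen of bone-forming cells, was at 0 to 6.25 CPM over all sums of the 4 types, and the summed level of 6 osteolineage markers was 27.4 to 35.9 CPM in aged and 21.5 to 23.3 CPM in adult sinusoidal-like cells. The summed level of 5 mural markers there was 455 to 458 CPM in aged and 581 to 582 CPM in adult libraries. In aged against adult libraries it was 230.4 to 247 against 391 to 394 CPM in metaphyseal-like, 20.3 to 22.3 against 55.5 to 96.7 CPM in arterial-like and 21.8 to 27.0 against 72.0 to 74.9 CPM in type R-like cells. In sinusoidal-like cells that sum was nearly all *Kcnj8*, at a mean of 611 CPM, since *Rgs5*, the next of the 5, averaged 1.77 CPM. The megakaryocyte sum was lower in aged libraries in every type, at 30.7 to 39.6 against 77.1 to 89.2 CPM in sinusoidal-like, 28.9 to 29.7 against 57.2 to 63.0 CPM in metaphyseal-like, 7.30 to 11.9 against 25.2 to 32.8 CPM in arterial-like and 6.93 to 7.28 against 36.0 to 40.7 CPM in type R-like cells. The erythroid and haematopoietic sums were higher in aged libraries in every type. The erythroid sum was 308.5 to 309 against 174 to 193 CPM in sinusoidal-like and 477 to 2812 against 197 to 390 CPM in type R-like cells. The haematopoietic sum was 41.4 to 56.3 against 39.0 to 39.5 CPM in sinusoidal-like and 53.4 to 105 against 40.8 to 47.1 CPM in type R-like cells. The part of these lists was not tested.

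*Lama4* was higher in aged sinusoidal-like (36.6 and 36.8 against 11.9 and 13.2 CPM, log2 1.54 ± 0.13), type R-like (400 and 413 against 147 and 187 CPM, 1.29 ± 0.14) and metaphyseal-like cells (194 and 189 against 113 and 114 CPM, 0.76 ± 0.07), and was not called in arterial-like cells (0.00 ± 0.10, adjusted p = 0.975). *Lama5* was higher in all 4, from 0.23 ± 0.10 in sinusoidal-like to 1.02 ± 0.21 in type R-like cells, and the sinusoidal-like call was lost in 11 of 21 settings. These were the fits without adult replicate 2, aged replicate 1, aged replicate 2, PTH replicate 1 or alendronate replicate 2, a resolution of 0.3, typing by marker UMIs, no integration, the stricter cell filter, no filter on low counts and DESeq2. *Hspg2* was higher in all 4 types, by 0.22 to 0.51. *Lamc1* was higher in sinusoidal-like (0.33 ± 0.07) and metaphyseal-like cells (0.70 ± 0.07), the former call being lost without marker-carrying cells.

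Collagen IV differed little between aged and adult libraries. *Col4a1* changed by 0.27 ± 0.05 in sinusoidal-like, 0.28 ± 0.05 in metaphyseal-like, 0.34 ± 0.11 in type R-like and -0.24 ± 0.06 in arterial-like cells, each called. *Col4a2* was called higher in sinusoidal-like (0.17 ± 0.05) and metaphyseal-like cells (0.18 ± 0.05) and lower in arterial-like cells (-0.38 ± 0.06). The arterial-like direction turned when clusters were made without integration, to 0.61 for *Col4a1*, 0.48 for *Col4a2*, 1.49 for *Lamb1* (-0.63 ± 0.17 with integration) and 0.92 for *Nid1* (-0.35 ± 0.09 with integration). In sinusoidal-like cells the values without integration were -0.00098 for *Col4a1* and -0.024 for *Col4a2*, and neither was called. The type R-like *Col4a1* call was lost at a resolution of 0.3, without integration and without adult replicate 1, the sinusoidal-like *Col4a2* call without adult replicate 2 or aged replicate 2, and the arterial-like *Lamb1* call without adult replicate 2. In type R-like cells *Lamb1* (0.52 ± 0.21) and *Nid1* (0.43 ± 0.17) were higher, calls lost without adult replicate 1 or aged replicate 2 and, for *Nid1*, also without adult replicate 2. In metaphyseal-like cells *Lamb1* was higher by 0.90 ± 0.07. *Nid2* was higher in metaphyseal-like cells (0.96 ± 0.14) and in sinusoidal-like cells (1.59 ± 0.33). Without thinning its sinusoidal-like share of cells over all libraries was within the haematopoietic background. *Nid1* was lower in sinusoidal-like cells (-0.23 ± 0.04). Typing by marker UMIs ended the metaphyseal-like *Col4a1*, *Col4a2* and *Nid2* calls, the arterial-like *Col4a1*, *Col4a2* and *Nid1* calls, the type R-like *Lamb1* and *Nid1* calls and the sinusoidal-like *Lama5* call.

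The PTH contrast asks what a bone-building treatment changes. *Col4a1* and *Col4a2* were higher in all 4 types. *Col4a1* was at 1990 and 2104 CPM in PTH and 1259 and 1251 CPM in adult metaphyseal-like cells (1.63-fold, log2 0.71 ± 0.05, adjusted p = 2.09e-15). It was at 1360 and 1179 CPM against 779 and 736 CPM in arterial-like cells (0.74 ± 0.06, adjusted p = 9.25e-11). Sinusoidal-like cells were at 376 and 415 CPM against 286 and 266 CPM (0.53 ± 0.05, adjusted p = 6.32e-12) and type R-like cells at 1136 and 1475 CPM against 770 and 839 CPM (0.75 ± 0.11, adjusted p = 3.77e-06). PTH and adult libraries did not overlap in any type. The type R-like calls of both chains were lost at a resolution of 0.8 and when cells were typed by marker UMIs, and the *Col4a2* one also at 0.3. The sinusoidal-like *Col4a2* call was lost without integration.

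*Lamb1* was higher in PTH libraries in sinusoidal-like (15.04 and 14.9 against 7.07 and 6.09 CPM, log2 1.18 ± 0.19), metaphyseal-like (156 and 166 against 87.6 and 83.0 CPM, 0.92 ± 0.07) and arterial-like cells (70.3 and 72.3 against 32.5 and 41.3 CPM, 0.97 ± 0.14), and was not called in type R-like cells (0.38 ± 0.24, adjusted p = 0.535). The sinusoidal-like call, on a share of cells within the haematopoietic background, was lost without marker-carrying cells with no smaller a fold (1.33, adjusted p = 0.134 by edgeR, on 3342 of 17995 cells), and the arterial-like one when cells were typed by marker UMIs (0.53, adjusted p = 0.227). All 10 members were higher in metaphyseal-like cells, where 8.57% of all genes were higher and 8.93% lower, from *Nid1* (0.17 ± 0.05) to *Lamb1*, with *Nid2* at 0.74 ± 0.13, *Lama4* at 0.54 ± 0.07, *Lamc1* at 0.37 ± 0.07, *Sparc* at 0.36 ± 0.05, *Lama5* at 0.33 ± 0.08 and *Hspg2* at 0.32 ± 0.05. Of these, *Nid1* was lost without adult replicate 1, adult replicate 2 or PTH replicate 2, and *Lama5* without adult replicate 1 or PTH replicate 2. Without marker-carrying cells the *Nid2* (0.55), *Lama4* (0.31), *Lama5* and *Nid1* calls were lost there, and with typing by marker UMIs those of *Nid2* (0.14) and *Lama5*. *Lama4* in sinusoidal-like cells rose from 11.9 and 13.2 to 27.8 and 25.4 CPM (1.05 ± 0.13), a call lost without marker-carrying cells and when cells were typed by marker UMIs. *Sparc* was higher in metaphyseal-like, arterial-like and type R-like cells, by 0.36 to 0.58, the type R-like call being lost at resolutions of 0.3 and 0.8 with a lowest value of 0.17, and not called in sinusoidal-like cells (-0.03 ± 0.03, adjusted p = 0.691). The haematopoietic marker sum was 17.8 to 25.3 CPM over the types in PTH and 31.6 to 47.1 CPM in adult libraries. The osteolineage sum was 31.4 to 42.9 against 21.5 to 23.3 CPM in sinusoidal-like, 10.9 to 22.3 against 9.49 to 9.96 CPM in metaphyseal-like, 20.7 to 31.2 against 15.5 to 16.0 CPM in arterial-like and 25.3 to 38.2 against 14.99 to 21.6 CPM in type R-like cells. The erythroid sum was 0 to 93.3 CPM over the types in PTH and 149 to 390 CPM in adult libraries, and the part of these lists was not tested.

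The alendronate contrast asks the same of a drug that slows resorption. Changes were small. *Sparc* was lower in sinusoidal-like cells, at 4007 and 3896 CPM against 4862 and 4978 CPM (-0.32 ± 0.03, adjusted p = 1.22e-10). It was also lower in arterial-like cells (-0.32 ± 0.05) and in metaphyseal-like cells (-0.22 ± 0.05, a call lost without alendronate replicate 2), and was not called in type R-like cells (0.01 ± 0.09, adjusted p = 0.973). *Lama4* was higher in sinusoidal-like cells (17.6 and 19.2 against 11.9 and 13.2 CPM, 0.55 ± 0.13, adjusted p = 0.00154) and in metaphyseal-like cells (0.25 ± 0.07) and lower in arterial-like cells (-0.34 ± 0.10, adjusted p = 0.0409, lost without any 1 of the 4 adult and alendronate libraries). *Col4a1* was higher in sinusoidal-like cells (0.23 ± 0.05) and metaphyseal-like cells (0.17 ± 0.05), and *Col4a2* higher in sinusoidal-like (0.19 ± 0.05) and lower in arterial-like cells (-0.26 ± 0.06). *Lamb1* was higher in metaphyseal-like cells (0.29 ± 0.08). Of these, both *Col4a2* calls were lost without adult replicate 2 or alendronate replicate 2, the metaphyseal-like *Col4a1* call without those or adult replicate 1, the metaphyseal-like *Lama4* call without adult replicate 1, adult replicate 2 or alendronate replicate 1, and the *Lamb1* call without adult replicate 2. Without marker-carrying cells the sinusoidal-like *Lama4* value was 0.16 (adjusted p = 0.905 by edgeR) and that of *Col4a1* lost its call too (adjusted p = 0.236), as did the sinusoidal-like *Col4a2* and the metaphyseal-like *Col4a1* and *Lama4* calls. Typing by marker UMIs ended each metaphyseal-like and arterial-like call named here except that of *Sparc* in metaphyseal-like cells. The haematopoietic marker sum was 49.3 to 73.2 CPM over the types in alendronate and 31.6 to 47.1 CPM in adult libraries. The megakaryocyte sum was 150.0 to 167 against 77.1 to 89.2 CPM in sinusoidal-like and 75.4 to 78.5 against 57.2 to 63.0 CPM in metaphyseal-like cells. The mural sum in sinusoidal-like cells was 697 to 719 against 581 to 582 CPM. The erythroid sum was 99.98 to 116 against 174 to 193 CPM in sinusoidal-like, 94.7 to 112 against 197 to 390 CPM in type R-like and 255 to 1571 against 149 to 230 CPM in arterial-like cells. Their part was not tested. The 11 called values became 5 without adult replicate 2 and 7 without alendronate replicate 2.

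Whether a change differed between types was tested by the interaction of type and group, in 1 fit over all sums with the library as a block, whose differences can depart from those between the fold changes fitted within each type. It did for 10 of 10 members in the juvenile contrast, where 12.4% of all genes did, for 8 in the aged (24.4%), for 3 in the PTH (7.52%) and for 4 in the alendronate contrast (3.65%). The PTH rise of *Col4a1* and *Col4a2* was not shown to differ between types (adjusted p = 0.257 and 0.0719), whereas that of *Lama4* (adjusted p = 2.51e-07), *Hspg2* (0.00108) and *Sparc* (8.56e-10) did. In the aged contrast, *Lama4* differed between types by up to 1.63 on the log2 scale (adjusted p = 2.04e-14) and *Lamb1* by up to 1.55 (adjusted p = 4.97e-10). The juvenile count was 6 with typing by marker UMIs. The PTH count was 7, 6 and 5 at a resolution of 0.3, at 0.8 and without integration, 1 without marker-carrying cells and 5 without PTH replicate 2. The alendronate count was 2 with typing by marker UMIs, without integration and without adult replicate 1.

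The *Lama5* share moved with group within a type. In sinusoidal-like cells it was 80.5% and 77.7% in adult libraries and 60.1% to 72.6% in the other 8. In arterial-like cells it was 62.3% and 64.2% in aged and 47.6% and 50.6% in adult libraries. In type R-like cells the lowest values were 23.2% in an adult library and 24.7% and 26.2% in the aged ones. With 2 libraries in a group these shares are given as a description.

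Related genes were followed in 5 lists, described by counts. Against the mean of the other types, 8.26% of all genes tested were higher and 8.08% lower in sinusoidal-like cells, 4.07% and 3.17% in metaphyseal-like, 5.86% and 4.92% in arterial-like and 6.03% and 8.87% in type R-like cells, and the counts of every list between types are read against these shares. Among 12 other basement membrane components, 9 were tested between types. In sinusoidal-like cells 5 of them were lower and 1 was higher, led by *Sparcl1*, a relative of *Sparc* (43.0 ± 15.5 CPM against 2225 ± 267 in type R-like cells, log2 -4.29 ± 0.16 against the mean of the others), and by the endostatin-bearing collagens *Col15a1* (-3.60 ± 0.21) and *Col18a1* (-2.91 ± 0.14). Arterial-like cells held 3 higher, with *Col18a1* at 623 ± 223 CPM (3.56 ± 0.10) and the integrin ligand *Npnt* (1.24 ± 0.14). Metaphyseal-like cells held 3 higher, with *Vwa1* (1.62 ± 0.11), *Col15a1* (1.26 ± 0.15) and *Npnt* (1.22 ± 0.13). *Npnt* averaged 142 CPM in metaphyseal-like, 143 in arterial-like and 137 in sinusoidal-like cells, against 17.5 CPM in type R-like cells. Its higher calls thus rest on the low type R-like level. Type R-like cells held 4 higher and 4 lower, with *Sparcl1* (3.46 ± 0.11) and *Col15a1* (1.95 ± 0.20) higher and *Npnt* lower (-3.57 ± 0.24). The list's median log2 fold change was -1.41 in sinusoidal-like cells.

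Of 7 other laminin chains, *Lama3* and *Lamb2* were tested, and both were higher in arterial-like cells (2.13 ± 0.12 and 1.45 ± 0.06) and lower in sinusoidal-like cells (-1.57 ± 0.16 and -1.30 ± 0.06). *Lamb2*, the alternative to *Lamb1*, was at 274 ± 36.1 CPM in arterial-like, 197 ± 56.1 in type R-like, 80.8 ± 14.2 in metaphyseal-like and 65.5 ± 8.24 CPM in sinusoidal-like cells. Among 11 basement membrane receptors, 10 were tested and 5 were lower in sinusoidal-like cells (all genes 8.08%), led by *Itgb4* (-3.16 ± 0.20), the Lutheran laminin receptor *Bcam* (-2.96 ± 0.12) and *Itga6* (-1.43 ± 0.06), an alpha subunit of laminin-binding integrins. Arterial-like cells held 3 higher, with *Itgb4* (3.65 ± 0.13) and *Bcam* (1.57 ± 0.09), and type R-like cells 3 higher and 1 lower, with *Bcam* (2.35 ± 0.10, 607 ± 151 CPM) and *Itga6* (1.62 ± 0.06, 450.2 ± 171 CPM). In metaphyseal-like cells 1 was higher and 2 were lower, with *Itgb4* at -1.01 ± 0.17. Of 17 genes for collagen folding and crosslinking, 16 were tested, and 2 were higher and 2 lower in sinusoidal-like cells (all genes 8.26% and 8.08%), with the prolyl hydroxylase subunit *P4ha2* at -2.85 ± 0.10 there and at 1.92 ± 0.08 in arterial-like and 1.90 ± 0.11 in type R-like cells.

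Between groups, the folding and crosslinking list had 21 of 57 gene-by-type values higher and 5 lower in juvenile libraries (all genes 11.7% each way). *Pxdn*, the peroxidase that crosslinks collagen IV, was higher by 0.90 ± 0.26 in type R-like cells. The collagen chaperone *Serpinh1* was higher by 0.83 ± 0.07 in arterial-like cells, where *P4ha2* was lower (-0.90 ± 0.20). In PTH libraries 6 of 57 were higher and 0 lower (all genes 5.0% and 4.81%), with *Pxdn* in type R-like (0.80 ± 0.18) and metaphyseal-like cells (0.35 ± 0.07) and the lysyl hydroxylase *Plod1* in metaphyseal-like cells (0.39 ± 0.06). In alendronate libraries 3 were higher and 4 lower (6.36% and 4.88%). *Colgalt1* was at -0.61 ± 0.15 in metaphyseal-like cells, and *Serpinh1* at -0.34 ± 0.07 and *Plod1* at -0.45 ± 0.09 in arterial-like cells. In aged libraries 27 were higher and 16 lower (30.2% and 29.8%), with *P4ha1* (1.51 ± 0.28) and *P4ha2* (1.31 ± 0.24) higher in type R-like and *Lepre1*, a prolyl hydroxylase, lower in metaphyseal-like cells (-1.63 ± 0.19).

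The shares of all values higher and lower in each contrast were as given for the folding list (5.0% and 4.81% in PTH, 6.36% and 4.88% in alendronate, 11.7% each way in juvenile, 30.2% and 29.8% in aged libraries). The other basement membrane components had 16 of 38 values higher and 2 lower in PTH and 12 higher and 3 lower in alendronate libraries. They had 13 higher and 8 lower in juvenile and 12 higher and 9 lower in aged libraries. *Col18a1* was higher in PTH type R-like (2.13 ± 0.30) and sinusoidal-like cells (1.64 ± 0.13). *Sparcl1* was higher in sinusoidal-like cells in PTH (1.55 ± 0.10), alendronate (1.16 ± 0.10) and aged libraries (0.92 ± 0.11). *Col15a1* was lower in type R-like cells of aged libraries (-1.68 ± 0.21). The receptors had 27 of 36 values higher and 6 lower in aged libraries, led by *Itga1*, the alpha subunit of a collagen receptor, in arterial-like (1.96 ± 0.10) and type R-like cells (1.83 ± 0.17). They had 11 higher and 1 lower in PTH, 10 higher and 1 lower in alendronate, and 6 higher and 7 lower in juvenile libraries, where *Bcam* fell in sinusoidal-like (-1.87 ± 0.12), metaphyseal-like (-1.40 ± 0.10) and arterial-like cells (-1.23 ± 0.10). The other laminin chains had 5 of 8 values higher in aged and 4 lower in juvenile libraries, with *Lama3* in metaphyseal-like cells higher in aged (1.57 ± 0.12) and lower in juvenile libraries (-1.51 ± 0.19).

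Genes with the most similar levels were sought over the 40 sums by Pearson's r of log2(CPM + 10) among 6654 genes, as a description over sums that share libraries. Nearest to *Col4a1* were *Col4a2* (r = 0.99), *Lamb1* (0.93), *Sgk1* (0.88), *Cd40* (0.85) and *Grb10* (0.85). Nearest to *Lama4* were *Mcf2l* (0.93), *Flt1* (0.92), *St8sia4* (0.92), *Palm* (0.90) and *Pde8a* (0.89), and nearest to *Lama5* were *Akap13* (0.92), *Jag2* (0.91), *Plekha1* (0.88), *Efnb2* (0.88) and *Map4* (0.88).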

How the data were processed

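Single-cell RNA sequencing (10x Chromium 3′) of sorted bone endothelial cells was analysed from 10 libraries, 2 per group, grouped by the sample labels. The authors' tools, per the submitters' processing notes, were UMI-tools 1.1.2 for barcodes, STAR 2.7.10a for alignment to mm10 and featureCounts 2.0.3 for counting, and the count tables (UMIs per gene and cell) were deposited without normalization. The annotation release, the strand setting and the kit version of each library are not given in the sources used here. The 10 members and the 5 lists were chosen with earlier results of these data known.

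Cells with 500 to 6000 genes and under 25% mitochondrial UMIs were kept. Clusters of cells of other lineages were removed, and the rest was integrated by Seurat 5.3.0 anchors in R 4.3.3 (2000 variable features without the listed basement membrane and cell cycle genes, 30 components, resolution 0.5). A cluster was named from a marker list. Outside the 4 types were 2425 unnamed cells, 655 proliferating cells, an erythroid cluster of 537 cells and a cluster of 1930 cells with lymphatic and type R markers. Doublets were treated only in an alternative, which removed the 1954 cells with the highest scores (scanpy 1.11.5). UMIs were summed per type and library (at least 20 cells) and tested with edgeR 4.0.16 (quasi-likelihood, TMM factors, filterByExpr, Benjamini-Hochberg over all genes), between types with the library as a block and between groups within a type. CPM are scaled by the total times the TMM factor, over all sums for comparisons of types and within the type for comparisons of groups. Chain shares were compared by exact sign-flip permutation over libraries (scipy 1.17.1). Genes named from a list were among the up to 3 called genes per contrast that averaged at least 20 CPM and had the largest absolute log2 fold change. Not all of these are given. Errors are SE or SD over libraries, the precision depends on total UMIs and on the cells in each sum, and the limit given for a count of 0 covers counting error only.

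In simulated sums with 200 changed genes among 11420, the test between types recovered 94 of 100 smaller and 100 of 100 larger changes (log2 of 1 and 2) with 7 false calls, and among 11380 the test between groups recovered 57 and 93 with 13 false calls. Changes were placed only in arterial-like sums for the first and in aged sinusoidal-like sums for the second. The simulated spread came from 1 fit over all sums. Recovery in other types and groups, such as juvenile type R-like sums, was not measured. Recovery was scored by adjusted p under 0.05 alone. The fold limit for calls between types was not applied, so the recovery under that limit was not measured. Deviations from the group mean were correlated at -0.03 to 0.05 between libraries with the same number in other groups (40 comparisons), and a replicate block was therefore fitted as an alternative only. Alternatives were other resolutions, typing by marker UMIs, no integration, stricter cell filters, other factors, DESeq2 1.42.0, no filter on low counts, that block, and leaving out single libraries.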

Additional observations from a re-analysis of the deposited data

Results flagged for a closer look

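Each change below differed between the 4 endothelial types by the test of the interaction of type and group (edgeR, adjusted p under 0.05), and the value given is the largest difference in log2 fold change between types in that joint fit over all sums, which can depart from the difference of the fold changes fitted within each type. In the juvenile contrast it was 1.08 for *Col4a1*, 1.03 for *Col4a2*, 1.04 for *Hspg2*, 0.95 for *Lama4*, 1.11 for *Lama5*, 1.17 for *Lamb1*, 0.87 for *Lamc1*, 0.61 for *Nid1*, 1.86 for *Nid2* and 0.72 for *Sparc*. *Nid2* was called higher in arterial-like cells alone (1.96), at 35.7 and 24.7 CPM in juvenile and 10.4 and 4.63 CPM in adult libraries (scaled over all sums). That call was lost when cells were typed by marker UMIs, and its lowest value over the alternatives was 0.60. In the aged contrast it was 0.61 for *Col4a1*, 0.64 for *Col4a2*, 1.63 for *Lama4*, 0.63 for *Lama5*, 1.55 for *Lamb1*, 0.69 for *Lamc1*, 0.71 for *Nid1* and 0.45 for *Sparc*. In the PTH contrast it was 0.44 for *Hspg2*, 1.12 for *Lama4* and 0.60 for *Sparc*, and in the alendronate contrast 0.46 for *Col4a1*, 0.47 for *Col4a2*, 0.87 for *Lama4* and 0.37 for *Sparc*. The contrasts share the adult libraries.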

How the results depend on the processing

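Of 4130 log2 fold changes of members recomputed under the alternatives, 3928 kept their side of the threshold without turning a called value (127 uncalled values changed sign), 144 lost the call, 49 gained one and 9 turned. The cause was not tested. Of 112 called values 64 stayed called in every setting, and 22 were lost by leaving out 1 library. Without integration the aged change turned to -0.00098 for *Col4a1* and -0.024 for *Col4a2* in sinusoidal-like cells and to 0.61, 0.48, 1.49 and 0.92 for *Col4a1*, *Col4a2*, *Lamb1* and *Nid1* in arterial-like cells. The uncalled aged *Lamb1* value in sinusoidal-like cells became 0.92 at a resolution of 0.8 and 0.71 with types by marker UMIs, which also turned the alendronate change of *Col4a1* in metaphyseal-like cells to -0.0016. Members called in metaphyseal-like cells were 5 in place of 3 at resolutions of 0.3 and 0.8, with types by marker UMIs and without integration, and 3 to 4 with a library left out. In arterial-like cells 0 in place of 1 were called at 0.8, without integration and with the stricter cell filter, and 0 to 1 with a library left out. In type R-like cells 1 in place of 3 was called with types by marker UMIs. Members whose change differed between types fell from 10 to 6 in the juvenile contrast with types by marker UMIs. In the PTH contrast they were 7, 6 and 5 in place of 3 at 0.3, at 0.8 and without integration, 1 without marker-carrying cells (mostly with *Kcnj8* UMIs), and 3 to 5 with a library left out. In the alendronate contrast they were 2 in place of 4 with types by marker UMIs and without integration, and 2 to 4 with a library left out. The 11 alendronate values were 7 at 0.8, 5 with types by marker UMIs, 6 without marker-carrying cells, and 5 to 14 with a library left out. The *Lama5* share of type R-like minus metaphyseal-like cells passed the threshold at -8.73 points without marker-carrying cells and ran from -7.10 to -3.87 with a library left out. The *Col4a1* share passed at 2.40 points for type R-like minus sinusoidal-like cells (0.3), at -0.83 for arterial-like minus metaphyseal-like cells (no integration) and at -2.95 for type R-like minus arterial-like cells (0.8), and missed it for type R-like minus metaphyseal-like cells at -2.57 (marker UMIs) and -1.83 (stricter filter).

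The replicate numbers did not pair the libraries, and the replicate block left the values called at 33, 32 and 23 in the juvenile, aged and PTH contrasts and gave 12 in place of 11 in the alendronate contrast, with *Col4a1* in arterial-like cells at -0.18 the added call. Over all genes, DESeq2 called 2840 in place of 5093 genes in juvenile and 975 in place of 2465 genes in alendronate sinusoidal-like cells, leaving out marker-carrying cells gave 1098 and 290 there, and no filter on low counts gave 3502 in place of 1887 genes in sinusoidal-like cells against the other types. Type R-like sums of juvenile libraries rest on 46 and 31 cells.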

Other observations

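Among the other collagen IV chains, *Col4a3*, which belongs to the alpha 3, 4 and 5 network of kidney and lung basement membranes, was chosen after its values were seen. In metaphyseal-like cells it was at 19.9 and 22.0 CPM in aged and at 1.73 and 2.50 CPM in adult libraries (log2 3.30 ± 0.28, adjusted p = 3.6e-13 by edgeR). In sinusoidal-like cells it was at 3.22 and 3.59 CPM against 0.663 and 1.29 CPM (1.80 ± 0.44, adjusted p = 0.00047 by edgeR), on 14 and 15 against 6 and 11 UMIs. In arterial-like cells it had 13 and 27 UMIs in the aged and 0 in both adult libraries. In juvenile metaphyseal-like cells it was lower, at 0.808 and 0.418 CPM against 1.73 and 2.50 CPM (-1.73 ± 0.59, adjusted p = 0.0235 by edgeR), on only 4 and 2 against 9 and 12 UMIs. Of the 4 values of these chains tested between groups, 3 of *Col4a3* and 1 of *Col4a4*, 4 were higher in aged and 1 was lower in juvenile libraries, where 30.2% and 11.7% of all values were. *Col4a4* had 10 and 12 UMIs in aged and 0 in both adult metaphyseal-like sums. These chains were not set against the haematopoietic background, and in the aged contrast age cannot be told apart from library preparation or annotation.

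Cells outside the 4 types carried the members too, on CPM scaled by plain totals. Proliferating cells, in the 9 libraries with at least 20 of them, had *Col4a1* at 1563 ± 379 CPM, *Nid1* at 355 ± 71.6 CPM and *Lamb1* at 113 ± 44.3 CPM. The cluster of 1930 cells led by *Tagln*, *Ccl21a* and *Vwf*, which was not a single type across resolutions, had over 10 libraries *Col4a1* at 860.1 ± 593 CPM, *Nid1* at 146 ± 75.4 CPM and *Lama4* at 159 ± 57.4 CPM.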
